A study of Saccharomyces cerevisiae with 7 samples.

Results

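Rph1 binding was measured over the gene for the plasma membrane proton pump, PMA1, and over the gene for an acidic amino acid permease, DIP5. Each gene is represented by 1 peak of a deposited table of 731 Rph1 peaks. The PMA1 peak, chrVII_478823_485350, lay on chromosome VII from 478823 to 485350 (6528 bp), and the DIP5 peak, chrXVI_39995_43601, on chromosome XVI from 39995 to 43601 (3607 bp), in sacCer2 positions. The pair was chosen with the signal of these same libraries known, above all the high mean signal at PMA1 and the lower signal at both peaks after the change of medium. Their levels, and their change in that medium, are therefore given as a description with no test. The gene names came with the choice of the peaks and were not checked against an annotation of the sacCer2 build.

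PMA1 is an essential P-type ATPase that pumps protons out of the yeast cell. The gradient it builds drives nutrient uptake through proton symporters, amino acid permeases among them. DIP5 is a permease for the acidic amino acids glutamate and aspartate, and in S. cerevisiae its transcription is known to respond to amino acids outside the cell through the SPS sensor of the plasma membrane. Rph1 is a JmjC-family demethylase of histone H3 that also carries zinc fingers and binds DNA, where it is known as a transcriptional repressor.

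Chromatin immunoprecipitation with sequencing (ChIP-seq) was run on 7 libraries of Saccharomyces cerevisiae strain CEN.PK, mating type MATa, in which RPH1 carried an HA epitope tag linked to HYG. The groups were wild type after 1 h in SL (2 libraries), ppm1::kanMX, which lacks the methyltransferase of the phosphatase PP2A, in YPL (2), RPH1-S412A-HA-HYG in YPL (1) and wild type in YPL (2). S412A puts alanine in place of a serine of Rph1. YPL is made with 2% peptone, 1% yeast extract and 2% lactate, and both peptone and yeast extract are rich in amino acids. SL is a minimal lactate medium: the first SL library is labelled with yeast nitrogen base at 0.17%, free of amino acids, and the second with ammonium sulfate at 0.5% and lactate at 2%. No label states that replicates were separate cultures, so the spread that a p-value is set against may be technical variation. It was taken from peaks of like signal, and S412A, with 1 library, adds none to it.

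Values are the deposited signal, scaled so that each library totals 22000000, and signal per kb is that value divided by the peak width. The libraries implied 13808893 to 34820208 reads. The PMA1 peak held 13153 to 37471 implied reads and the DIP5 peak 2685 to 10208, so counting errors ran from 0.517% to 1.93%. They were small beside the differences of group means from wild type in YPL. The share of the total that fell in peaks was 24.1% and 19.7% in SL, 22.6% and 20.0% in the ppm1 deletion and 18.6% in S412A. In wild type in YPL it was 21.7% and 22.9%. A library with a lower share has lower values at many peaks at once, and no spike-in separates that from less Rph1 at a given gene. Fewer cells with Rph1 at a gene and less Rph1 per cell cannot be told apart in bulk chromatin. The table names no genes, so the ppm1 deletion could not be checked in it.

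By mean signal per kb the PMA1 peak was one of the strongest in the table, and the DIP5 peak was in its lower part. Averaged over all 7 libraries, the PMA1 peak held 3617 signal per kb and ranked 10 of 731, while the DIP5 peak held 1819 per kb and ranked 545. By mean signal, not divided by width, PMA1 ranked 7 and DIP5 242. Both were wider than the median peak of 2528 bp, and the PMA1 peak was wider than 96.6% of all peaks. At that width the PMA1 peak is long enough to reach past a single coding sequence. In the order of genes in the R64 annotation, PMA1 stands between LEU1, an enzyme of leucine synthesis, and the small reading frame YGL007C-A followed by BRP1, and DIP5 stands between DIM1, an rRNA dimethylase, and YPL264C. PMA2 is a close copy of PMA1, and no source used here says how reads matching both copies were placed.

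At the PMA1 peak, signal was 20955 and 15617 in SL, 28868 and 23675 in the ppm1 deletion and 18713 in S412A (95% Wilson interval 18480.5 to 18949), against 27420.5 and 30026 in wild type in YPL. Both SL libraries and the S412A library lay below both libraries of wild type in YPL, and the ppm1 libraries overlapped those of wild type in YPL. Of all 731 peaks, 45.6% had both SL libraries below wild type in YPL, 18.9% had both ppm1 libraries below it and 82.4% had the S412A library below it. Per kb this came to 3210 and 2392 in SL, 4422 and 3627 in the ppm1 deletion and 2867 in S412A, against 4200.4 and 4599.6 in wild type in YPL. The SL libraries differed from each other by 1.34-fold, more than the ppm1 libraries (1.22-fold) or the wild-type YPL libraries (1.10-fold).

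At the DIP5 peak, signal was 4278 and 4314 in SL, 6951 and 6450 in the ppm1 deletion and 5744 in S412A (95% Wilson interval 5616 to 5876), against 8654 and 9524 in wild type in YPL. The 4 groups did not overlap, which was the case, in any order of the groups, at 12.7% of all peaks. Per kb the values were 1186 and 1196 in SL, 1927 and 1788 in the ppm1 deletion and 1593 in S412A, against 2399 and 2640 in wild type in YPL. The SL libraries were within 1.01-fold of each other on this scale, closer than their counting errors of 1.93% and 1.58%. Relative to the median peak of each library they differed by 1.20-fold at DIP5 and by 1.13-fold at PMA1, so which member scattered more between them depended on the scaling.

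**Figure D1:**
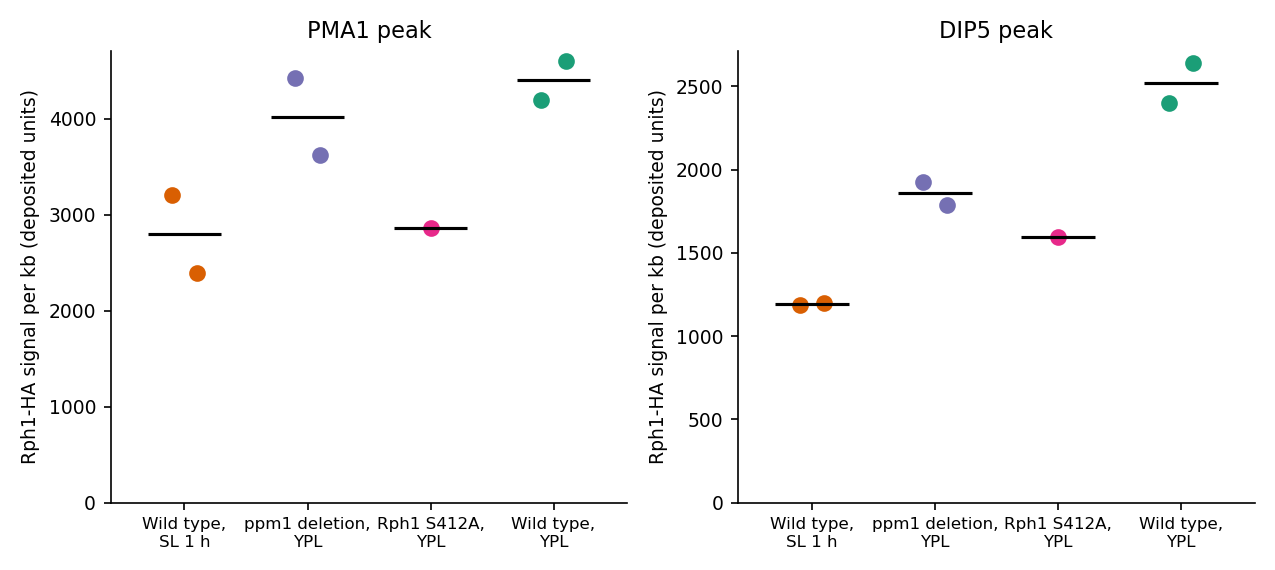
Rph1-HA signal per kb at the PMA1 peak (left) and the DIP5 peak (right) in each library (points) with the group mean (line), for wild type after 1 h in SL, the ppm1 deletion, Rph1 S412A and wild type in YPL (n = 2, 2, 1 and 2). The SL points at DIP5 are at 1186 and 1196, below all other libraries, while the SL points at PMA1, at 3210 and 2392, lie on either side of the S412A point at 2867.

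In order of mean signal per kb, the groups at DIP5 ran from SL (1191 ± 7.18, SD, n = 2) through S412A (1593, n = 1) and the ppm1 deletion (1858 ± 98.4, n = 2) to wild type in YPL (2520 ± 170.4, n = 2). At PMA1 the order was the same, with SL at 2801 ± 578, S412A at 2867, the ppm1 deletion at 4024 ± 563 and wild type in YPL at 4400 ± 282. There SL and S412A overlapped, as did the ppm1 deletion and wild type in YPL, so at PMA1 the libraries did not order the groups within either pair.

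The question of the medium change is what became of Rph1 at these transport genes when the amino acid sources of YPL were withdrawn. Signal at DIP5 averaged 4296 ± 25.9 in SL and 9089 ± 615 in wild type in YPL (SD, n = 2 each), a ratio of 0.473 between geometric means (log2 -1.08). At PMA1 it averaged 18286 ± 3774 in SL and 28723.5 ± 1843 in wild type in YPL (SD, n = 2 each), a ratio of 0.630 (log2 -0.67). The median of all 731 peaks stood at log2 -0.09, 45.6% had SL libraries entirely below those of wild type in YPL, and 36.7% passed as lower under limma (Benjamini-Hochberg adjusted p under 0.05). As the members were chosen on this contrast, their place among those peaks, here and in what follows, is a description that the choice itself favours. The 2 media differ in more than amino acids, since yeast extract and peptone supply other nutrients as well, and the effect of amino acid loss alone cannot be told apart from the rest of the change.

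On the deposited scale the size of the difference at PMA1 depended on the SL library. Against the first and second wild-type YPL library the first SL library stood at log2 -0.39 and -0.52, and the second at -0.81 and -0.94. At DIP5 the same pairs gave -1.02 and -1.15 for the first SL library and -1.004 and -1.14 for the second. Relative to the median difference over all peaks of the same pair, the values were -0.42 and -0.50 for the first and -0.63 and -0.66 for the second at PMA1, and -1.04 and -1.14 for the first and -0.83 and -0.86 for the second at DIP5. On that scale both members differed between the SL libraries, in opposite directions. Leaving out the first SL library gave a log2 change of -0.88 at PMA1 and -1.07 at DIP5, and leaving out the second gave -0.45 at PMA1 and -1.09 at DIP5.

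Rank within a library is not affected by how that library was scaled. By signal per kb the PMA1 peak ranked 98 and 97 of 731 in SL, 9 and 7 in the ppm1 deletion and 26 in S412A, against 12 and 14 in wild type in YPL. The pump gene thus left the leading peaks in both SL libraries and remained above most peaks there, with 633 and 634 peaks below it. The DIP5 peak ranked 730 and 731 in SL, 500 and 486 in the ppm1 deletion and 516 in S412A, against 218 and 179 in wild type in YPL. It was thus the peak with the least signal per kb of the whole table in the second SL library, and only 1 peak was lower in the first. Among the 224 internal peaks at least 3.2 kb wide, a class to which both members belong, DIP5 was the lowest in both SL libraries and ranked 70 and 65 in wild type in YPL.

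Set against the median peak of the same library, the PMA1 peak stood at 1.49 and 1.31 times that median in SL, 1.98 and 1.82 times in the ppm1 deletion and 1.60 times in S412A, against 1.99 and 2.09 times in wild type in YPL. The DIP5 peak stood at 0.550 and 0.657 times the median in SL, 0.862 and 0.898 times in the ppm1 deletion and 0.889 times in S412A, against 1.14 and 1.20 times in wild type in YPL. The permease gene was thus above the median peak in wild type in YPL and below it in each of the other 5 libraries. On this scale S412A lay between the ppm1 libraries at DIP5, whereas on the deposited scale it lay below both.

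**Figure D2:**
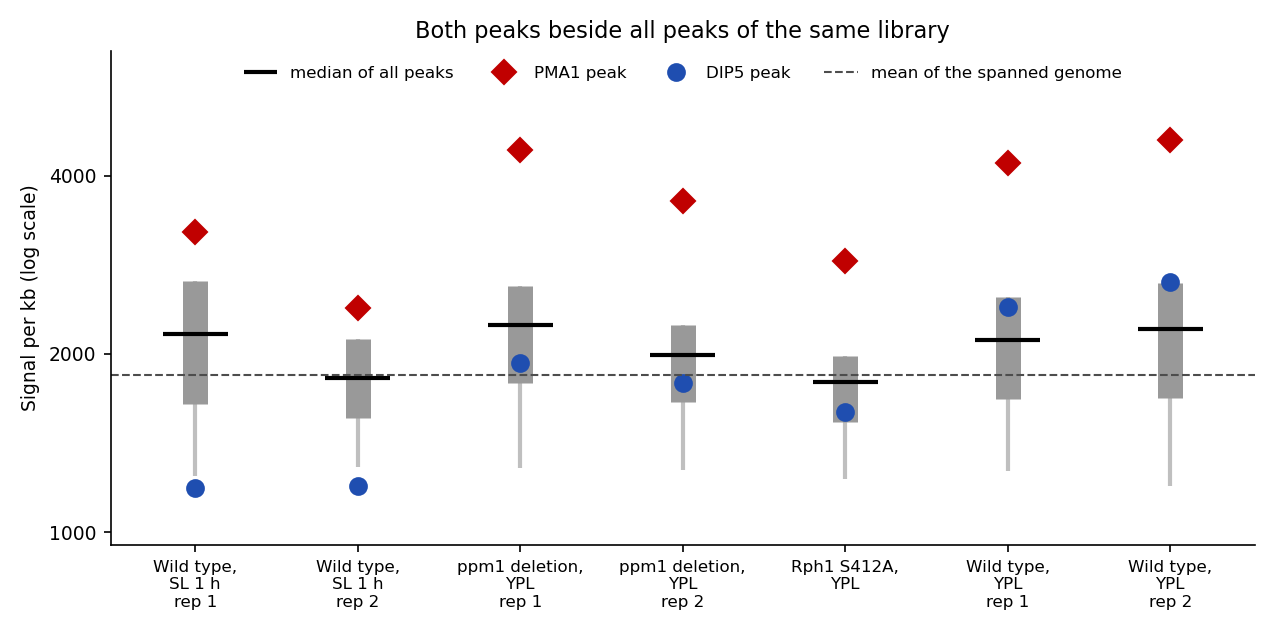
Signal per kb (log scale) of the PMA1 peak (diamonds) and the DIP5 peak (circles) in each of the 7 libraries, beside the median (black line), the quartiles (thick bar) and the range down to the 1st percentile (thin line) of all 731 peaks of that library. The dashed line is the mean of 1846 per kb over the spanned genome. DIP5 lies below the 1st percentile in both SL libraries, while PMA1 lies above the upper quartile in all 7.

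The level of DIP5 in SL was also below the mean of the genome as a whole. A library total of 22000000 spread over the 11.9 Mb that reach to the last peak of each chromosome gives a mean of 1846 per kb. The DIP5 peak stood at 0.643 and 0.648 times that mean in SL, 1.04 and 0.969 times in the ppm1 deletion and 0.863 times in S412A, against 1.30 and 1.43 times in wild type in YPL. The PMA1 peak stayed above it, with 1.74 and 1.30 times in SL, 2.40 and 1.97 times in the ppm1 deletion and 1.55 times in S412A, against 2.28 and 2.49 times in wild type in YPL. Values below that mean were common among peaks: the lower quartile of all peaks, 1536 to 1785 per kb, was below it in every library. What the library totals count was not stated, and reads from repeated DNA may raise this mean, so a value below 1 does not by itself show a lack of Rph1.

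The ratio of both peaks within a library is likewise free of linear scaling. It is not free of differences in how far the peaks of a library stand apart. The quartiles of all peaks were 1536 and 1984 per kb in S412A, against 1678 and 2493 or 1685 and 2634 in the wild-type YPL libraries. What this did to the ratio was not tested. DIP5 over PMA1, per kb, was 0.369 and 0.49996 in SL, 0.436 and 0.493 in the ppm1 deletion and 0.556 in S412A, against 0.571 and 0.574 in wild type in YPL. The wild-type YPL libraries were nearly equal, the S412A library lay just below them, and the SL and ppm1 libraries lay lower and overlapped each other. On the log2 scale the group means differed from wild type in YPL by -0.41 in SL, -0.30 in the ppm1 deletion and -0.04 in S412A. With quantile normalization, which is not linear, the S412A difference was 0.25. Leaving out SL libraries in turn moved the SL value to -0.20 (first left out) and -0.63 (second left out). Groups of 2 allow no exact permutation p below 0.333, and no test of these ratios was made.

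**Figure D3:**
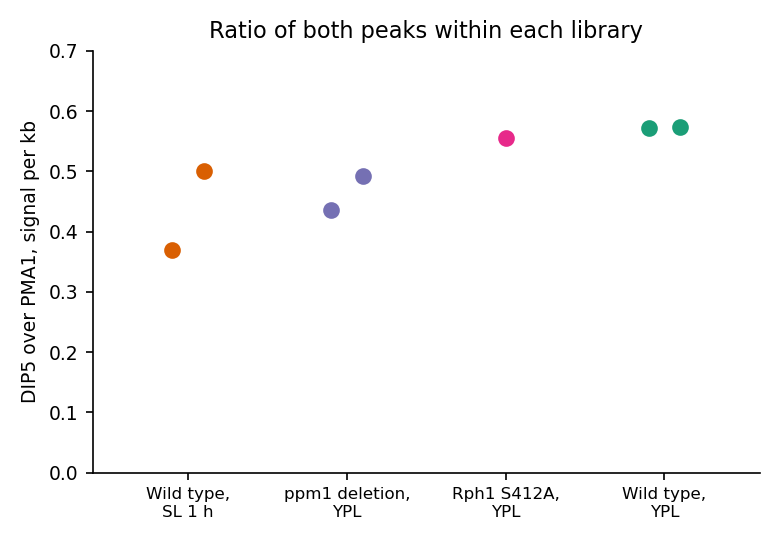
Ratio of DIP5 to PMA1 in signal per kb within each library (points), for wild type after 1 h in SL, the ppm1 deletion, Rph1 S412A and wild type in YPL. The wild-type YPL points are at 0.571 and 0.574, the S412A point is at 0.556, and the SL and ppm1 points run from 0.369 to 0.49996.

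The ppm1 deletion and S412A were each compared with wild type in YPL in a limma fit over all 731 peaks. These comparisons share the wild-type YPL libraries with the contrast on which the members were chosen, so a chance high value in those libraries would lower the members in each of them. At PMA1 signal averaged 26272 ± 3672 in the ppm1 deletion and 28723.5 ± 1843 in wild type in YPL (SD, n = 2 each), which is -0.13 on the log2 scale (SE 0.18, adjusted p = 0.997 under limma). The 95% interval of that change, -0.49 to 0.22, holds both a moderate loss and a small gain. With quantile normalization the change was 0.06, and without the second ppm1 library it was 0.01.

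At DIP5 signal averaged 6700 ± 355 in the ppm1 deletion and 9089 ± 615 in wild type in YPL (SD, n = 2 each), which is -0.44 on the log2 scale (SE 0.16, adjusted p = 0.277 under limma). It did not pass the threshold, which 1.23% of all peaks passed as lower. The libraries did not overlap, as was the case in this direction at 18.9% of all peaks. The call depended on the scaling and on the SL libraries in the fit. The adjusted p under limma was 0.0102 with median-centred libraries and 0.0121 with quantile normalization. The wild-type YPL libraries also entered the choice of the members, which can favour a lower value here. No call of DIP5 in the ppm1 deletion is therefore read as support for a change. The scatter of replicates at DIP5 itself, an SD of 0.07 on the log2 scale, was smaller than the 0.16 that the fit took from peaks of like signal. At PMA1 the SD of replicates, 0.22, was larger than the 0.18 used.

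Both peaks were lower in S412A, in a comparison of 1 library with the wild-type YPL libraries that also entered the choice of the members. The size of each difference is therefore given with no test. Signal at PMA1 was 18713 in S412A (n = 1) and 28723.5 ± 1843 in wild type in YPL (SD, n = 2), which is -0.62 on the log2 scale. Signal at DIP5 was 5744 in S412A (n = 1) and 9089 ± 615 in wild type in YPL (SD, n = 2), which is -0.66 on the log2 scale. The median over all peaks was -0.25, and the S412A library lay below both wild-type YPL libraries at 82.4% of them. Relative to that median, PMA1 stood at -0.36 and DIP5 at -0.41.

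In the fit the S412A library was assumed to vary like the other groups. When the first or the second wild-type YPL library was left out, the log2 change was -0.68 or -0.55 at PMA1. At DIP5 it was -0.73 or -0.59. With median-centred libraries the change was -0.38 at PMA1 and -0.42 at DIP5, and with quantile normalization it was -0.59 and -0.34.

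S412A and the ppm1 deletion were also set against each other. The log2 differences use no library of the medium change, while their SE and p come from the fit of all 7 libraries. At PMA1 S412A was lower with a log2 difference of -0.48 (SE 0.22, adjusted p = 0.243 under limma, 95% interval -0.92 to -0.05), and it did not pass. It was -0.26 with median-centred libraries (adjusted p = 0.501 under limma), -0.65 with quantile normalization (adjusted p = 0.000691) and -0.34 without the first ppm1 library (adjusted p = 0.836), and the adjusted p was 0.0817 or 0.0869 when one or the other SL library was left out. At DIP5 the change was -0.22 (SE 0.20, adjusted p = 0.436 under limma, 95% interval -0.61 to 0.17), and it was -0.0013 with median-centred libraries and 0.05 with quantile normalization. No peak of the table passed as lower (0%) and 0.274% passed as higher. With an unadjusted p under 0.05, limma gave 123 lower and 17 higher, and the median log2 difference over all peaks was -0.24.

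**Figure D4:**
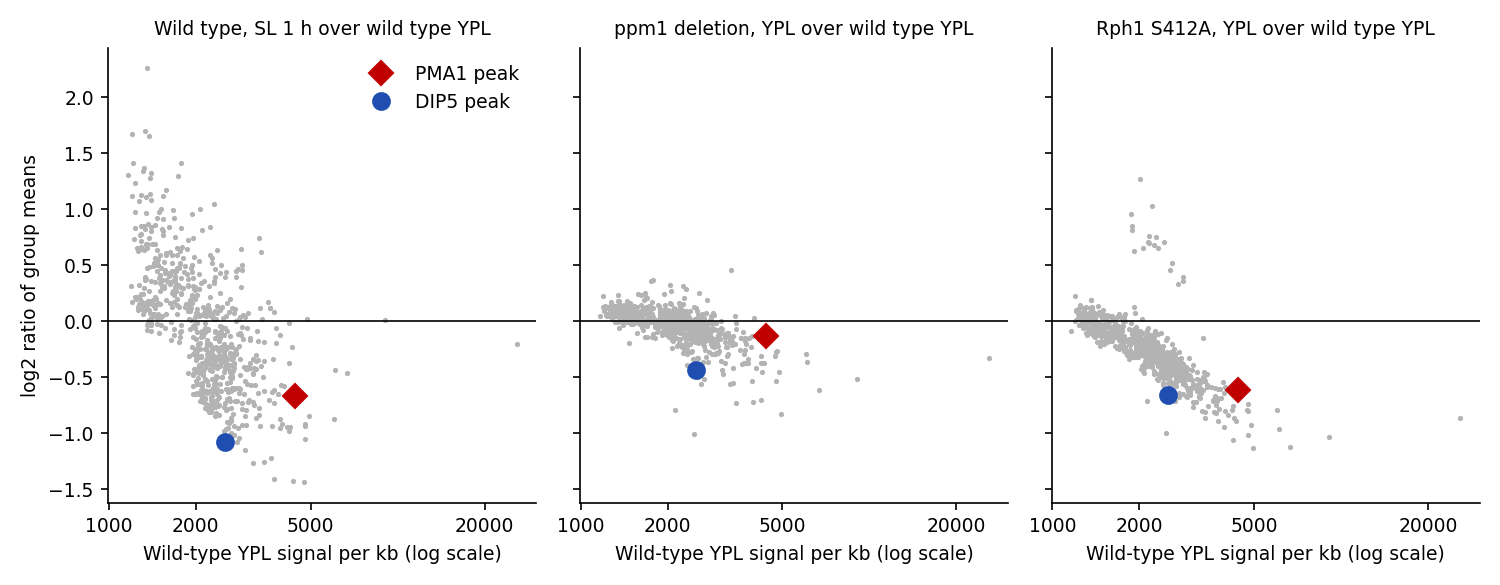
Log2 ratio of group means for wild type after 1 h in SL, the ppm1 deletion and Rph1 S412A, each over wild type in YPL, against wild-type YPL signal per kb (log scale) for all 731 peaks (grey), with PMA1 (diamond) and DIP5 (circle). DIP5 stands at log2 -1.08, -0.44 and -0.66 in the 3 panels, and PMA1 at -0.67, -0.13 and -0.62.

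Each ratio shares the wild-type YPL libraries with the level in YPL, so the members were also placed beside peaks of their own level. This band, within 10% of the wild-type YPL signal per kb of the member, was chosen after the data were seen. For PMA1 it held 13 other peaks, with a median log2 change of -0.93 in SL, -0.31 in the ppm1 deletion and -0.79 in S412A. PMA1 itself stood at -0.67, -0.13 and -0.62 in the same order.

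For DIP5 the band held 190 other peaks, with a median log2 change of -0.35 in SL, -0.07 in the ppm1 deletion and -0.37 in S412A. DIP5 itself stood at -1.08, -0.44 and -0.66 in the same order. The band, the ratios and the choice of the members share the wild-type YPL libraries, so nothing is concluded from these values.

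In SL, peaks on the same stretch of chromosome as the members changed in both directions. The nearest peak above PMA1, 0.56 kb away from 485911 to 489433, held 1899 ± 166 per kb in SL and 1685 ± 94.2 in wild type in YPL (SD, n = 2 each), a log2 change of 0.17 where PMA1 stood at -0.67. The nearest peak below it, 36.9 kb away from 436972 to 441908, had a log2 change of -0.72 in SL, 0.06 in the ppm1 deletion and -0.27 in S412A. Within 60 kb of PMA1 there were 7 other peaks, whose log2 changes in SL ran from -0.94 to 0.62 with a median of -0.14, and 4 of them were below wild type in YPL. In S412A 6 of these peaks were below it, and in the ppm1 deletion 2 were. A peak was counted when its log2 change was negative. On that measure the median over all peaks was -0.09 in SL, -0.0075 in the ppm1 deletion and -0.25 in S412A. The S412A count is therefore not read as a local trait. By a stricter measure, 82.4% of all peaks had the S412A library below both wild-type YPL libraries.

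The nearest peak above DIP5, 2.90 kb away from 46500 to 49318, held 2192 ± 299 per kb in SL and 2334 ± 129 in wild type in YPL (SD, n = 2 each), a log2 change of -0.10. It stood at -0.21 in the ppm1 deletion and -0.50 in S412A. The nearest peak below, 15.8 kb away from 22729 to 24239, held 2066 ± 388 per kb in SL and 1322 ± 4.34 in wild type in YPL (SD, n = 2 each), a log2 change of 0.63. Within 60 kb of DIP5 the 7 other peaks had log2 changes in SL of -0.32 to 1.04, with a median of 0.12, and 2 were below wild type in YPL. In S412A 6 of these peaks were below it, like DIP5, and in the ppm1 deletion 2 were.

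**Figure D5:**
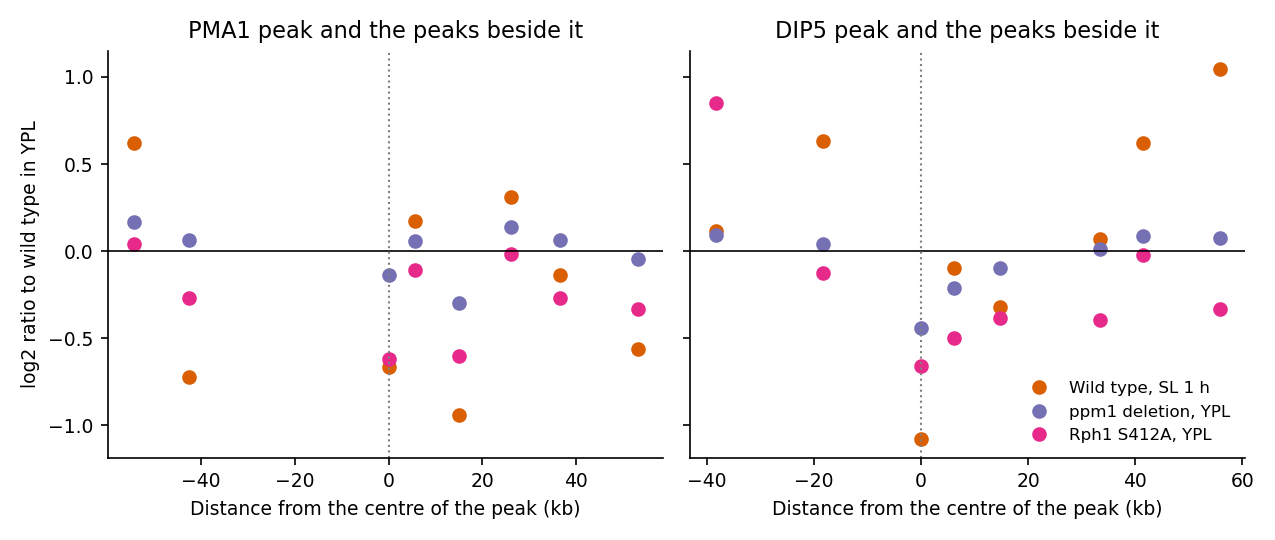
Log2 ratio to wild type in YPL of the PMA1 peak (left) and the DIP5 peak (right) at distance 0, and of the 7 other peaks within 60 kb of each, against distance in kb between peak centres, for wild type after 1 h in SL, the ppm1 deletion and Rph1 S412A. The SL point of DIP5 is at -1.08 and its neighbours run from -0.32 to 1.04, while the neighbours of PMA1 run from -0.94 to 0.62 around its -0.67.

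Likeness of pattern was measured by Pearson's r of log2 signal over the 7 libraries, as a description, since all peaks share the depth and enrichment of each library. The 3 peaks most like PMA1 were XII from 592025 to 594069 (r = 0.997), II from 35937 to 39391 (0.996) and XII from 897740 to 900164 (0.994). The II peak, for example, held 2223 ± 400.1 per kb in SL and 3598 ± 315 in wild type in YPL (SD, n = 2 each), with log2 changes of -0.70 in SL, -0.15 in the ppm1 deletion and -0.70 in S412A. An r does not measure the size of a change. The XII peak from 592025 to 594069 had log2 changes of -0.31 in SL, -0.06 in the ppm1 deletion and -0.32 in S412A, smaller than those of PMA1. By r alone such a pattern was common: 195 of the other 730 peaks had an r above 0.9 with PMA1.

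The 3 peaks most like DIP5 all lay on chromosome IV, from 1465770 to 1469513 (r = 0.988), from 38025 to 42781 (0.984) and from 540804 to 542179 (0.979). The first of these held 1349 ± 63.5 per kb in SL and 2416 ± 127 in wild type in YPL (SD, n = 2 each), with log2 changes of -0.84 in SL, -0.28 in the ppm1 deletion and -0.56 in S412A. DIP5 had 106 of 730 peaks above an r of 0.9. PMA1 and DIP5 correlated with each other at 0.858, and DIP5 stood at place 250 among the peaks most like PMA1.

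The peaks closest in mean strength over all libraries, SL included, had changes in SL of the same sign as PMA1 and of the opposite sign to DIP5. Next to PMA1 in mean signal per kb over all libraries were the XIV peak from 628228 to 634839 above it and the X peak from 525561 to 527502 below it, with log2 changes in SL of -0.92 and -0.93. Next to DIP5 were the II peak from 340647 to 345023 above it and the V peak from 291706 to 293069 below it, with log2 changes in SL of 0.40 and 0.35, where DIP5 stood at -1.08. DIP5 and these 2 had nearly equal means over all libraries, near 1818 per kb. In wild type in YPL the II and V peaks held 1615 and 1696 per kb, against 2520 at DIP5. The mean used for matching includes the SL libraries, so nothing is concluded from these signs. Among peaks within 10% of DIP5 in wild-type YPL signal per kb, the median log2 change in SL was -0.35.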

How the data were processed

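Chromatin from HA-tagged Rph1 strains was sequenced in 7 libraries, and groups were taken from the sample titles. YPL cultures were taken at an OD600 of about 1.0 and SL cultures 1 h after the switch from YPL, and 50 OD600 units were fixed in 1% formaldehyde for 15 min, per the labels' protocols. Reads were aligned with Bowtie2 to sacCer2, per the submitters' processing notes, while no source used here names the peak caller, the read filters or any use of input. The deposited values are signal per peak. In each library 100% of values were whole multiples of 1 step (tolerance 0.001) equal to 22000000 over a whole number, taken as the implied total. This reading comes from the values alone, and no count model was used. Wilson intervals cover counting error only, while the intervals of log2 changes come from the SE of the fit.

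Log2 signal (pseudocount 0) was fitted with limma 3.58.1 in R 4.3.3 (eBayes with trend) over 731 peaks and 7 libraries, with no term but group and 3 residual degrees of freedom. The prior degrees of freedom were infinite, so each peak took its SD from the trend over mean signal. P-values were adjusted by the Benjamini-Hochberg method (threshold 0.05, two-sided). The fit was tested on simulated data. Ranks, ratios and Wilson intervals were computed in Python 3.11.15 with scipy 1.17.1. Named beside the members were, by rule, the 3 peaks of highest r, the nearest peak on either side and the next in mean signal per kb.

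The members and lists were chosen with earlier results of these data known. A list of 30 plasma membrane transport genes was not counted and promoter motifs were not searched, since the gene table used here is of build R64, whose positions cannot be set against sacCer2. It served for names and gene order only. Alternatives covered the pseudocount, median centring, quantile normalization, a filter on low peaks, a replicate block and leaving out each replicate.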

Additional observations from a re-analysis of the deposited data

How the results depend on the processing

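The lower signal of both members in SL and in S412A, against wild type in YPL, kept its direction under every alternative that gave a value. At DIP5 in SL the log2 change of -1.08 was -1.0001 with a pseudocount of 10% of the median and -0.96 with quantile normalization, and at PMA1 it ran from -0.88 to -0.45 on leaving out a library. The ratio of DIP5 to PMA1 in SL against wild type in YPL ran from -0.63 to -0.20 (log2) on leaving out a library, and in S412A it was 0.25 with quantile normalization. In the ppm1 deletion DIP5 stood at -0.42 with median-centred libraries and -0.38 with quantile normalization, and ran from -0.51 to -0.37 on leaving out a library. There PMA1 stood at 0.060 with quantile normalization and ran from -0.28 to 0.0088 on leaving out a library. In S412A against wild type in YPL PMA1 stood at -0.38 with median-centred libraries, and DIP5 at -0.42 with these and -0.34 with quantile normalization. On leaving out a library PMA1 ran from -0.68 to -0.55 and DIP5 from -0.73 to -0.59. For S412A against the ppm1 deletion, quantile normalization gave -0.65 at PMA1, which then passed, and 0.046 at DIP5, and median centring gave -0.26 and -0.0013.

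Counts of peaks called over the table moved as well. They were 438 in SL (221 to 451 on leaving out a library), 9 in the ppm1 deletion (0 to 24), 142 in S412A (0 to 283) and 2 for S412A against the ppm1 deletion (0 to 77). In the ppm1 deletion the count was 33 with median-centred libraries, 46 with quantile normalization and 5 without the lowest 25% of peaks, and for S412A against the ppm1 deletion it was 19, 21 and 1. Median centring split the S412A calls into 83 lower and 41 higher, against 128 and 14 as deposited, and quantile normalization into 90 and 68. In the SL calls the split was 300 lower and 244 higher with median-centred libraries and 296 and 260 with quantile normalization, against 268 and 170. The cause was not tested. With 1 library left in a group, that library is assumed to vary like the others.

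Same-numbered libraries share only a number: the correlation of their deviations from the group means over peaks was 0.14 between SL and the ppm1 deletion, -0.33 between SL and wild type in YPL and -0.44 between the ppm1 deletion and wild type in YPL. With a replicate block on the 6 numbered libraries, which gives no value for S412A, 419 peaks passed in SL and 8 in the ppm1 deletion, the log2 changes of the members were as before, and the adjusted p under limma in the ppm1 deletion was 0.997 at PMA1 and 0.379 at DIP5. A count model was not run, because the deposited values are not counts. The number of libraries limits these results, and so do the scaling and the choice of the members with these data known. Counting errors were small beside the differences of group means from wild type in YPL.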
